A study of Mus musculus with 32 samples.

Results

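The genes described here are 10 markers of the endothelium, the cell layer that lines blood vessels and the heart: Pecam1, Kdr, Emcn, Plvap, Icam2, Ecscr, Tie1, Tek, Egfl7 and Esam. They were given as a list, chosen with earlier results of these data known, and all 10 were found among the 23154 genes of the files. Their values were read in single cells from 8 organs of C57BL/6J mouse embryos staged E9.5, E10.5 or E11.5 (days of embryonic development), sequenced by a protocol that counts UMIs, random tags that mark each RNA molecule before amplification. The authors had sorted the cells by the activity of transcription factor networks into mesodermal cells (MC), hematopoietic cells (HC), neuronal cells (NC) and epithelial cells (EC, not to be read as endothelial). Of 1801 cells analysed, 869 were MC, 246 HC, 382 NC and 304 EC, from 7 embryos, 3 of the first stage and 2 of each later stage. By the labels, 6 embryos were male and E9.5 embryo 2 was female. No embryo was treated and all were of the same inbred strain. The MC cells came from heart (236), somite (199), lung (145), liver (92), skin (91), intestine (90), forebrain (13) and hindbrain (3). Since the 4 groups were made from the same cells, a p-value between them measures the spread over embryos and not the grouping.

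Endothelial cells arise from mesoderm, and part of the first blood cells bud from them, so both lineages share surface proteins and transcription factors. Growth of the vessel bed depends on secreted VEGF, which binds the receptor Kdr, and its ripening on angiopoietins, which bind the receptor Tek together with Tie1. In the early heart the endocardium, the inner endothelium, gives rise to the mesenchyme of the cushions from which valves form.

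Sequences before the start sites of the genes are shown for the receptors Tek, Tie1 and Kdr, for Emcn and for Egfl7. RefSeq windows on GRCm38.p6 were matched by symbol, and these 5 of the 10 genes had 7 windows in all, 3 of them of Egfl7. No window was available for Pecam1, Plvap, Icam2 and Esam. Ecscr was left out of the sequences and of the counts of windows below by choice, not for lack of a match. The 5 genes include the gene found most often and the gene found least often together with many of the others, Tie1 and Egfl7. Capitals mark AGGAAG or its reverse complement, a core that ETS transcription factors bind. The sequences run 5′ to 3′ on the strand of the gene, at chr3:137340828-137341027 (plus) for Emcn, chr4:94739039-94739238 (plus) for Tek, chr5:75978506-75978705 (minus) for Kdr, chr4:118490062-118490099 (minus) for Tie1 and chr2:26583773-26583802 (plus) for Egfl7.
Emcn: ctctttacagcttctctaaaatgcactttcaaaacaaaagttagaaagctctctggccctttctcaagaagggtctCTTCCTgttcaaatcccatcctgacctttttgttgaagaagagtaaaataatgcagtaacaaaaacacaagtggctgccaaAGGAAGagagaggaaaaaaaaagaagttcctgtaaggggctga
Tek: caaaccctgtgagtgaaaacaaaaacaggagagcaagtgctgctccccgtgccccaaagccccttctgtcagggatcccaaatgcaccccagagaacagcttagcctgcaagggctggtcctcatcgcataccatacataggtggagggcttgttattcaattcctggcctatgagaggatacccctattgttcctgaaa
Kdr: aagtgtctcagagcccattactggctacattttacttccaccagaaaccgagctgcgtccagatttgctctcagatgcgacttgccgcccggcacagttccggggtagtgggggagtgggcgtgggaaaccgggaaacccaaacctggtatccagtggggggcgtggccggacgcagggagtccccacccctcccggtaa
Tie1: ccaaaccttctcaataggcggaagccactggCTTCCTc
Egfl7: gagaacacacacAGGAAGtccggcgggaag
In the 250 bases before the start, AGGAAG was present on either strand in 4 of the 7 windows, those of Egfl7, Emcn and Tie1, against 29.5% of all 32851 RefSeq windows. The longer ETS form CCGGAAG, which shares GGAAG with it, was in 0 of the 7 (6.91% of all windows), the GATA core AGATAA in 0 (9.99%) and the SOX core ACAATG in 0 (10.7%). These counts describe letters in short windows and nothing about a factor.

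On GRCm38 the genes lie at chr5:75932827-75978458 (Kdr), chr4:118471191-118490061 (Tie1), chr4:94739289-94874976 (Tek), chr11:106654217-106750628 (Pecam1), chr9:37528078-37538319 (Esam), chr11:106377656-106388075 (Icam2), chr3:137341067-137432185 (Emcn), chr8:71497765-71511752 (Plvap), chr2:26580014-26593120 (Egfl7) and on chromosome 18 (Ecscr). In the annotation, exons of Egfl7 overlap exons of Agpat2 on the other strand and of Gm20532, not analysed here, on the same strand, and those of Ecscr overlap 1700066B19Rik on the other strand. Whether counting used the strand is not given in the sources used here, so their reads cannot be told apart. Agpat2 was expressed in 19% of MC cells and in 29.3% of MC cells of the liver, and 1700066B19Rik in 1.5% of MC cells.

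Levels are means over cells of log2(TPM/10 + 1), where TPM is the name the authors give to a gene's UMIs scaled to 1000000 in each cell, and a cell is said to express a gene at a level of at least 1, that is 10 TPM. The median depth was 306271 UMIs per cell (20326 to 2524348), with 309609 in MC, 437877 in HC, 252307 in NC and 301230.5 in EC. E9.5 embryos 1 and 2 were labelled HiSeq 2500 (median 579613.5 UMIs) and the other 5 embryos HiSeq 4000 (241013), while the methods name a single instrument for all libraries. Of the former pair only embryo 2 was deep, with a median of 924171 UMIs, and embryo 1 (296088) lay near E9.5 embryo 3 (309740). By the labels, therefore, for the heart, whose E9.5 cells all came from the first 2, stage and instrument cannot be told apart. E9.5 embryo 3 gave no brain cells, its lung and liver were pooled in a library, as were its skin, intestine and somite, and E9.5 embryo 1 had only 3 HC cells. The files name cells by number and hold no barcodes, and 14 pairs of cells with identical values, each within a library, were counted once.

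Against NC and EC, 5 of the 10 genes were higher in MC cells by the test: the receptors Kdr and Tek, Emcn, Plvap and Ecscr. All 10 differences were positive in both comparisons. Against HC the 10 genes split: Tek, Plvap, Ecscr and Emcn were higher in MC, and Egfl7, Icam2 and Pecam1 were higher in HC. The plot of embryo means by group shows each of these values.

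**Figure D1:**
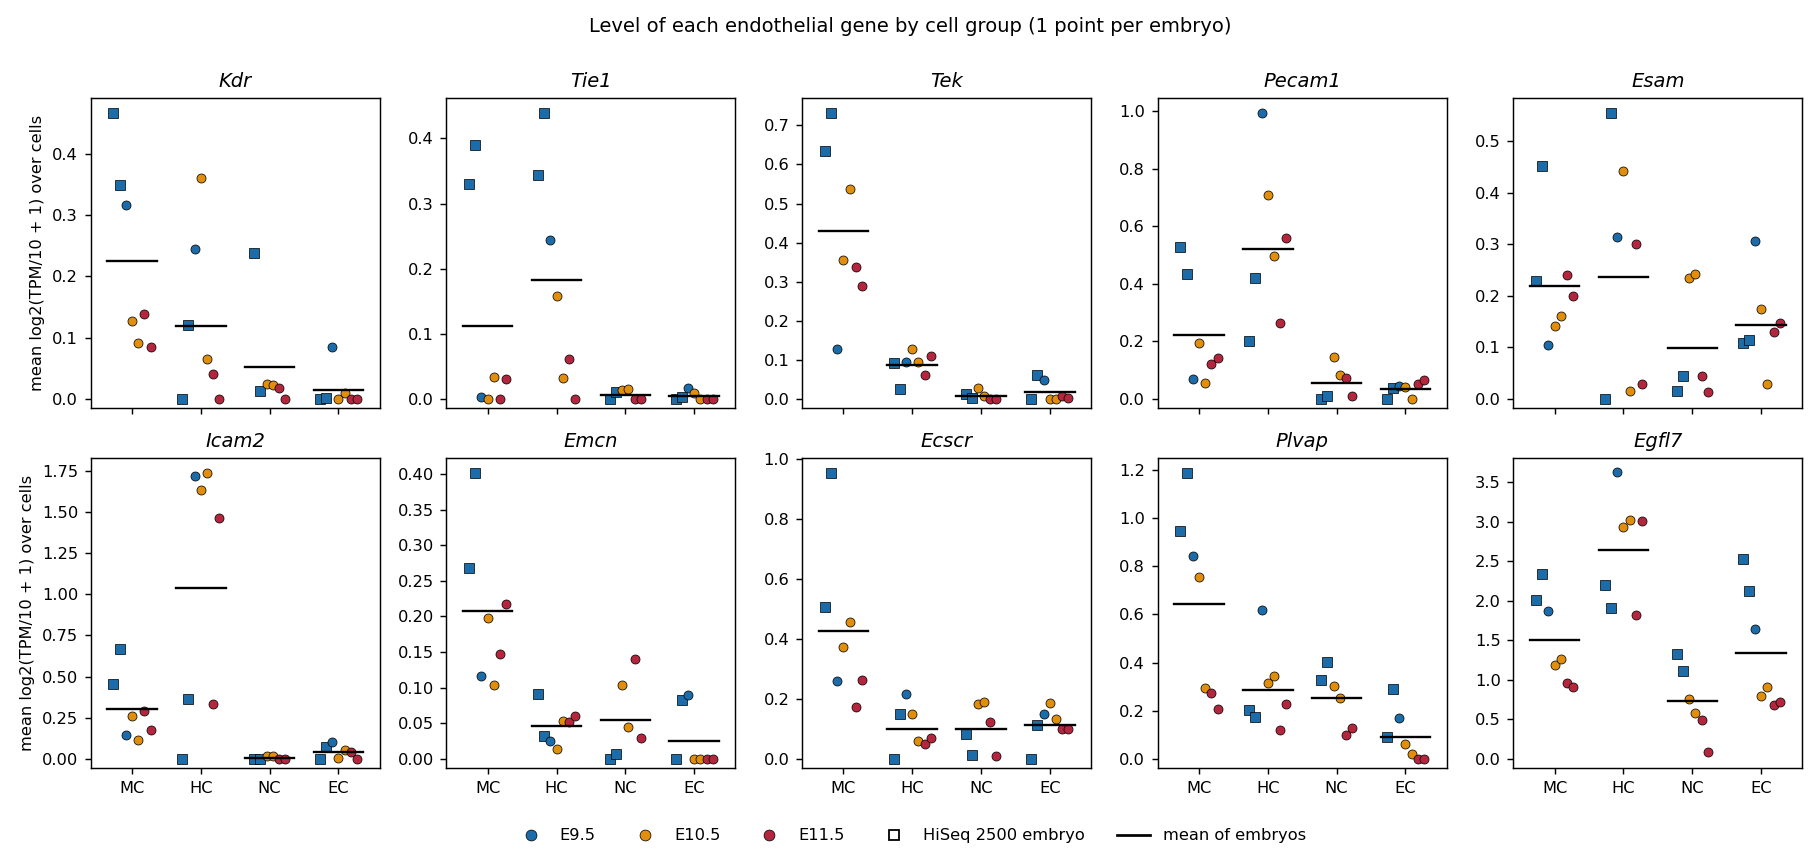
Mean log2(TPM/10 + 1) of each gene per embryo (points, squares for HiSeq 2500 embryos, colours for stage) in MC, HC, NC and EC cells, with the mean over embryos as a line. Tek is at 0.127 or above in every MC mean but no higher than 0.062 in any NC or EC mean, whereas Icam2 and Egfl7 reach their highest points in HC.

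Of the receptors, Tek was the one with the least overlap between groups. Its MC means ran from 0.13 (E9.5 embryo 3) over a median of 0.35 to 0.73, with 0.43 ± 0.21 (SD, n = 7 embryos). HC means ran from 0.025 over 0.094 to 0.127, with 0.086 ± 0.034 (n = 7). NC and EC were lower still, at 0.0078 ± 0.010 (n = 6) and 0.017 ± 0.026 (n = 7). No HC, NC or EC mean reached the lowest MC mean, and Tek was higher in MC than in HC in 7 of 7 embryos. The differences were 0.34 ± 0.057 (SE) from HC (adjusted p = 2.26e-05), 0.42 ± 0.059 from NC (adjusted p = 3.86e-06) and 0.41 ± 0.057 from EC (adjusted p = 4.47e-06). Kdr, the main VEGF receptor, had MC means from 0.085 over 0.14 to 0.47 (0.23 ± 0.15), and these overlapped those of HC (0 to 0.36) and NC (0 to 0.24), the latter only through E9.5 embryo 1. It passed the test against NC (0.17 ± 0.060, adjusted p = 0.0388) and EC (0.21 ± 0.057, adjusted p = 0.0101) but not against HC (0.11, 95% interval -0.011 to 0.22, adjusted p = 0.154). Against NC, Kdr fell below the threshold without E9.5 replicate 2 or 3, E10.5 replicate 2, E11.5 replicate 1 or E11.5 replicate 2 (0.14 to 0.19, highest adjusted p = 0.159), and against EC without E9.5 replicate 2 (adjusted p = 0.0565). Tie1, an orphan receptor that works with Tek, was near 0 outside a few embryos: 0.33 and 0.39 in MC of E9.5 embryos 1 and 2, and 0 to 0.033 in the other 5. HC held Tie1 at 0.34 and 0.44 in the same embryos, 0.24 in E9.5 embryo 3 and 0 to 0.16 at the later stages, so the groups overlapped (MC minus HC -0.070, 95% interval -0.20 to 0.056, adjusted p = 0.408).

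Among the adhesion genes, Icam2, a ligand of leukocyte integrins, was highest in HC at 1.04 ± 0.76 (lowest 0, median 1.46, highest 1.74, n = 7), with MC at 0.30 ± 0.20 (0.12, 0.26, 0.67). Of the HC means, 4 lay between 1.46 and 1.74 and the others at 0, 0.34 and 0.36, so that MC and HC overlapped (difference -0.73 ± 0.20, adjusted p = 0.00537). NC and EC held at most 0.020 and 0.106, below the lowest MC mean (0.117). Icam2 was higher in MC than in NC in 6 of 6 embryos and than in EC in 7 of 7. It did not pass the test against either. That fit shares 1 estimate of the spread over the 4 groups, and HC had the widest. Pecam1, which joins endothelial cells and also sits on blood cells, stood at 0.52 ± 0.27 in HC (0.20, 0.50, 1) and 0.22 ± 0.19 in MC (0.056, 0.14, 0.53). HC was above MC in all embryos but E9.5 embryos 1 and 2 (difference -0.30 ± 0.087, adjusted p = 0.00725). Esam, a junction protein of endothelium and platelets, did not pass in any of these comparisons: MC 0.22 ± 0.11, HC 0.24 ± 0.22, NC 0.10 ± 0.11 and EC 0.14 ± 0.085, with overlap throughout (MC minus HC -0.018, 95% interval -0.17 to 0.13).

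Emcn, a sialomucin of vein and capillary endothelium, had MC means of 0.104, 0.198 and 0.402 (lowest, median, highest) and was at or below 0.14 in every other group. It was higher in MC by 0.16 ± 0.033 than in HC (adjusted p = 0.000338), by 0.15 ± 0.034 than in NC (0.00149) and by 0.18 ± 0.033 than in EC (0.00018). Ecscr, a regulator of endothelial movement and signalling, had MC means of 0.17, 0.37 and 0.95, and only the lowest MC mean lay below the highest in HC (0.21), NC (0.19) and EC (0.185). Its differences were 0.33 ± 0.075 (adjusted p = 0.000928), 0.33 ± 0.078 (0.00256) and 0.31 ± 0.075 (0.00321) from HC, NC and EC. Plvap, which forms the diaphragms of fenestrae and caveolae, had MC means of 0.21, 0.75 and 1.19, with HC at 0.12, 0.23 and 0.62, NC at 0.10, 0.28 and 0.40 and EC at 0, 0.061 and 0.29. These ranges overlapped, and the differences were 0.36 ± 0.12 (adjusted p = 0.0166), 0.39 ± 0.12 (0.0198) and 0.55 ± 0.12 (0.00101). Without E9.5 replicate 1 or E10.5 replicate 1 the Plvap calls against HC and NC were lost, as was the one against HC without E9.5 replicate 2 (highest adjusted p 0.0838 and 0.0698).

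Egfl7, a secreted protein of the vessel matrix, was the member least tied to MC. HC held 2.65 ± 0.68 (1.82, 2.94, 3.63), MC 1.51 ± 0.56 (0.91, 1.27, 2.34), EC 1.35 ± 0.76 (0.68, 0.91, 2.53) and NC 0.73 ± 0.45 (0.085, 0.67, 1.33). MC means overlapped all other groups, and MC lay 1.14 below HC (-1.14 ± 0.32, adjusted p = 0.00553) while the differences from NC (0.78 ± 0.33, adjusted p = 0.102) and EC (0.16 ± 0.32, adjusted p = 0.872) missed the threshold. In EC, too, the 3 E9.5 embryos (1.65 to 2.53) stood above the 4 later ones (0.68 to 0.91), and the same order held in MC (1.87 to 2.34 against 0.91 to 1.27).

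In counts, 7 of the 10 genes were called between MC and HC (4 higher in MC, 3 lower) where 37.3% of all 17425 genes were, 23.4% higher and 13.9% lower. Between MC and NC 5 were called, all higher, beside 21.2% of all genes and 9.57% upward. Between MC and EC 5 were called, all higher, beside 15.4% and 6.28%. The median difference over the 10 genes was 0.044, 0.23 and 0.20 in these comparisons, beside 0.016, -6e-04 and -0.0078 over all genes. Calls made in embryos of the HiSeq 4000 alone numbered 7, 3 and 4. HC against the mean of NC and EC gave 4 of 10, all higher in HC (background 49.5%): Egfl7 by 1.61 ± 0.28 (adjusted p = 3.08e-05), Icam2 by 1.01 ± 0.18 (4e-05), Pecam1 by 0.48 ± 0.076 (1.07e-05) and Tie1 by 0.18 ± 0.054 (0.00788). Over all genes 16.4% were called higher in HC, so the 4 calls lie under the share called in either direction and above the share called upward. These comparisons share cells of MC, HC, NC or EC with each other. The EC group held 1 cell with 9 of the 10 genes, and the counts stayed at 5 (MC against EC) and 4 without it, a check chosen after the data were seen.

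Shares of expressing cells separate how many cells carry a gene from how much each carries. In MC they were 50.6% for Egfl7, 20.7% for Plvap, 16.3% for Tek, 15.1% for Ecscr, 8.52% for Icam2, 7.36% for Kdr, 6.44% for Pecam1, 6.21% for Esam, 5.64% for Emcn and 3.68% for Tie1. In NC the shares were 29.8% for Egfl7, 8.64% for Plvap, 2.36% for Ecscr and at most 1.83% for the other genes. Icam2 and Tie1 were at 0 of 382 NC cells, which allows up to 0.785%, and Tie1 at 0 of 304 EC cells, which allows up to 0.987%. Thinned to 100000 UMIs per cell, with shallower cells left out (112 of MC, 59 of NC), Egfl7 was at 57.2% in MC and 37.5% in NC, Plvap at 25.9% and 14.9%, and Tek at 18.9% and 0.619%. At that depth 1 UMI equals 10 TPM, so any cell with 1 UMI counts as expressing, unlike in deeper cells. Egfl7 and Plvap were thus also found in a sizeable share of NC cells. The source of these NC values, and how far the same source enters the MC shares, was not tested.

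Within HC the levels of several genes differed between cells with and without markers of blood lineages. Itga2b marks megakaryocytes and early progenitors, Kit progenitors and Csf1r macrophages, and the sets they define overlap. Egfl7 stood at 3.53 ± 0.63 in Kit-expressing HC cells and 2.25 ± 0.77 in the others (embryo means ± SD), higher in 5 of 5 embryos, and 99 of 102 Kit cells expressed it. Icam2 was at 1.99 ± 0.95 with Kit and 0.87 ± 0.36 without, also higher in 5 of 5, and at 1.59 ± 0.58 with Itga2b and 0.80 ± 0.58 without (6 of 6). Pecam1 was at 0.84 ± 0.25 with Itga2b and 0.31 ± 0.15 without (6 of 6). All 10 HC cells that expressed Tie1 also expressed Itga2b, and 13 of the 15 with Esam and 14 of the 15 with Kdr did. Of all 246 HC cells, 120 expressed Itga2b. Among 42 Csf1r cells, Egfl7 was in 52.4% and Icam2 in 54.8%, with Tie1, Emcn and Esam in 0, which allows up to 7.14%. These are descriptions with no test, since HC cells of a marker come unevenly from the embryos.

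The MC cells differed by organ chiefly through the heart, and the plot by organ gives every embryo. Tek, Icam2 and Pecam1 were higher in heart MC than in the mean of the other organs, liver MC stood out for Egfl7, intestine MC for the lack of Tek, and skin MC for the lack of Tek and Plvap. Hindbrain, with 3 MC cells, gave no embryo mean.

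**Figure D2:**
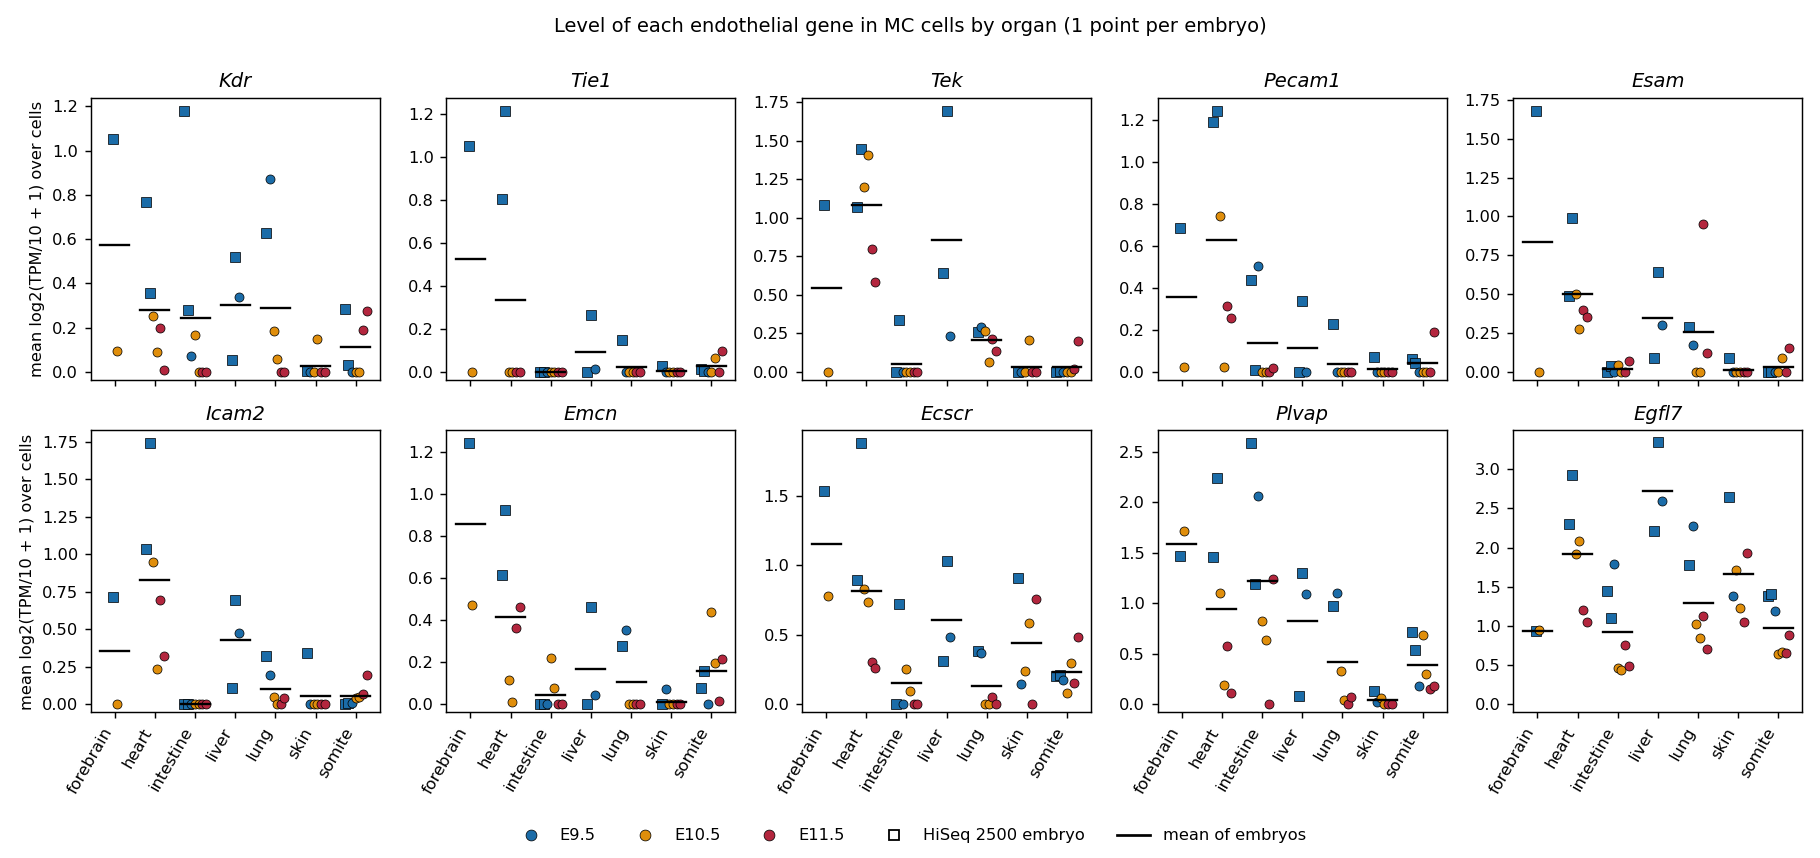
Mean log2(TPM/10 + 1) of each gene per embryo in MC cells, by organ (points as in the plot by group, lines for the means over embryos, at least 3 cells a point). Heart points are spread widely, with the HiSeq 2500 embryos of E9.5 high for most genes, and intestine shows high Plvap beside Icam2 and Tie1 at 0.

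For Tek, heart MC means were 1.07 and 1.45 (E9.5 embryos 1 and 2), 1.20 and 1.41 (E10.5) and 0.80 and 0.585 (E11.5). Liver followed at 0.64, 1.69 and 0.235 in the 3 E9.5 embryos. Lung ran from 0.068 to 0.29, while intestine, skin and somite had at most 0.34, 0.21 and 0.20 and were at 0 in 6, 5 and 4 embryos. Heart lay above every lung, intestine, skin and somite mean and overlapped liver and forebrain (0 and 1.09). It exceeded the other organs by 0.80 ± 0.13 (adjusted p = 1.21e-05), and intestine (-0.41 ± 0.12, adjusted p = 0.0288), skin (-0.43 ± 0.13, 0.037) and somite (-0.43 ± 0.12, 0.0298) lay below them. The Tek call for intestine was lost without E9.5 replicate 1, E10.5 replicate 2 or E11.5 replicate 1 (highest adjusted p = 0.0952). The call for skin was lost without E9.5 replicate 2, E10.5 replicate 2 or either E11.5 replicate (0.0948), and the one for somite without E9.5 replicate 1 or 2, E10.5 replicate 2 or E11.5 replicate 1 (0.0967). The heart call held in each of these omissions. By share, 37.7% of heart cells and 34.8% of liver cells expressed Tek, with 1.10% in skin and 1.01% in somite.

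Icam2 in heart MC was at 1.03 and 1.74, 0.95 and 0.23, and 0.69 and 0.32 at the 3 stages, against 0.106 to 0.69 in liver, 0 to 0.32 in lung, and 0 in all 7 intestine means. Heart overlapped liver, forebrain, skin and lung through its lowest embryos. The difference from the other organs was 0.66 ± 0.12 (adjusted p = 5.37e-05). Icam2 was expressed in 0 of 90 intestine cells, which allows up to 3.33%, with 0 UMIs in all. Pecam1 had heart means of 1.19 and 1.24, 0.74 and 0.022, and 0.31 and 0.26, with 0 in most lung, skin and somite embryos. Only E10.5 embryo 2 of the heart lay that low, and the difference was 0.51 ± 0.11 (adjusted p = 0.000846). Of all 236 heart MC cells 17.8% expressed Pecam1, and at most 7.69% did in the other organs with an embryo mean. Of the 3 hindbrain MC cells, 1 expressed all 10 genes.

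Egfl7 in liver MC was at 2.21, 3.35 and 2.60, the first of which lay within the heart range (1.06 to 2.92), as did the third. Skin came next with 1.05 to 2.64, then lung (0.70 to 2.27), somite (0.64 to 1.40), forebrain (0.94 in both embryos) and intestine (0.44 to 1.79). Liver exceeded the other organs by 1.44 ± 0.32 (adjusted p = 0.00659), a call lost without E9.5 replicate 2 (adjusted p = 0.0767). The level of Agpat2 in liver MC was 0.80, the highest of the organs. Plvap was at 2.58, 1.19 and 2.06 in intestine MC at E9.5, 0.83 and 0.64 at E10.5 and 0 and 1.24 at E11.5, overlapping heart and lung (intestine against the other organs 0.52 ± 0.24, adjusted p = 0.211). In skin it was at most 0.135 in 6 embryos, below every somite mean (0.156 to 0.715), and it lay 0.86 below the other organs (-0.86 ± 0.26, adjusted p = 0.0381), a call lost with the embryo as replicate block (0.0508) and without E9.5 replicate 2 or 3, either E10.5 replicate or E11.5 replicate 2 (highest adjusted p = 0.110).

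Emcn stood apart in forebrain MC, at 0.47 and 1.24 in 2 embryos, of which the latter had 3 cells (difference 0.70 ± 0.14, adjusted p = 0.00198). Without that embryo (E9.5 replicate 2) the call was lost (0.36, adjusted p = 0.306). Ecscr did not differ by the test in any organ and ran from 0.26 to 1.88 in heart, 0.31 to 1.03 in liver and 0 to 0.91 in skin, with overlap. Skin MC thus held Ecscr, in 16.5% of cells, while lacking Plvap, Tek and Pecam1 (1.10% each). Kdr was at 0.57 ± 0.68 in forebrain, 0.30 ± 0.23 in liver, 0.29 ± 0.37 in lung, 0.28 ± 0.27 in heart, 0.24 ± 0.43 in intestine, 0.11 ± 0.13 in somite and 0.025 ± 0.060 in skin. Its organs overlapped, no organ passed the test, and heart differed from the other organs by 0.021 (95% interval -0.25 to 0.29). Tie1 was at 0.80 and 1.21 in the E9.5 heart and 0 in all 4 later heart means. Esam ran from 0.28 to 0.99 in heart and passed in no organ.

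By count, 3 of 10 genes were called in heart against the other organs, all upward (background 19.1% in either direction, 7.97% upward). Forebrain had 1 call upward (4.63% and 4.38%) and liver 1 (2.63% and 2.44%). Downward, intestine had 1 (6.7% in either direction, 3.47% downward), skin 2 (5.58% and 1.65%) and somite 1 (4.11% and 1.86%). Lung had 0 called by limma (2.99%), with 1 gene, Ecscr, at an unadjusted p under 0.05, and 0 by edgeR and by DESeq2. All 10 heart differences were positive (median 0.31, beside -0.0437 over all genes), and all 10 of somite were negative (median -0.27, beside -0.0029). With the embryo as replicate block, which pairs organs of the same animal, heart gained Ecscr (adjusted p = 0.0115) and Egfl7 (0.0103) for 5 calls, intestine gained Egfl7 (0.0309, lower) and Ecscr (0.044, lower) for 3, and skin kept 1. In the order of organ means, neighbours differed by more than either SD only for Plvap (somite over skin), Tek (lung over intestine) and Egfl7 (liver over heart), and only the first pair did not overlap.

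From E9.5 to E11.5 the heart MC level of 7 of the 10 genes fell in the linear fit on day, and that of the other 3 did not pass (background 6.01%, and 5.47% downward), and all 10 slopes were negative with a median of -0.45 per day, beside -0.078 over all genes. The slopes were -0.75 ± 0.20 per day for Plvap (adjusted p = 0.0215), -0.74 ± 0.19 for Egfl7 (0.0202), -0.55 ± 0.13 for Ecscr (0.0102), -0.50 ± 0.065 for Tie1 (1.76e-05), -0.47 ± 0.082 for Pecam1 (0.000999), -0.44 ± 0.091 for Icam2 (0.00418) and -0.28 ± 0.071 for Tek (0.016). Kdr (-0.23), Esam (-0.18) and Emcn (-0.18) did not pass.

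Heart MC values per embryo show how far this rests on the first stage. Plvap was at 1.46 and 2.24 at E9.5, 1.10 and 0.19 at E10.5 and 0.58 and 0.108 at E11.5. Egfl7 was at 2.30 and 2.92, then 1.92 and 2.08, then 1.20 and 1.06, and Ecscr at 0.90 and 1.88, then 0.83 and 0.73, then 0.31 and 0.26. For both genes every E9.5 embryo lay above every E10.5 embryo and every E10.5 embryo above every E11.5 embryo. For Plvap, Pecam1 and Icam2, E10.5 embryo 2 lay below at least 1 embryo of E11.5. Emcn reached its lowest means at E10.5 (0.117 and 0.010), below E11.5 (0.36 and 0.46).

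Stage and instrument cannot be told apart in the E9.5 heart, and within the HiSeq 4000 embryos, that is E10.5 and E11.5, 8 of 10 slopes were negative and 1 was called. Without E9.5 replicate 2 or without E11.5 replicate 2, 2 of 10 were called, and without E11.5 replicate 1, 5. With edgeR and DESeq2 on summed UMIs 0 of 10 were called (2 and 1 at an unadjusted p under 0.05), with 10 of 10 slopes negative in each, and edgeR called 0 of all 15619 genes. In the other organs there were few calls. Intestine had 1, Plvap at -0.70 ± 0.18 per day (adjusted p = 0.032, background 2.77%, 1.5% downward), and lung 1, Kdr at -0.37 ± 0.10 (0.0461, background 2.77%, 1.04% downward). The Plvap call was lost without E9.5 replicate 1 or 3, E10.5 replicate 1 or E11.5 replicate 1 (highest adjusted p = 0.284), and the Kdr call when any of the 6 embryos of the lung was left out: E9.5 replicate 2 or 3, either E10.5 replicate or either E11.5 replicate (0.263). Kdr in lung MC was at 0.63 and 0.87 at E9.5, 0.19 and 0.061 at E10.5 and 0 in both E11.5 embryos. Skin and somite had 0 calls by limma (backgrounds 2.14% and 0.627%), with 0 at an unadjusted p under 0.05. edgeR and DESeq2 also called 0, each with 1 gene in skin and 3 in somite at an unadjusted p under 0.05. The heart slope itself lay below the mean slope of the 4 other organs for Tie1 (-0.50 ± 0.072, adjusted p = 0.000132), Pecam1 (-0.41 ± 0.091, 0.0111) and Icam2 (-0.40 ± 0.10, 0.0298), 3 of 10 where 2.09% of genes were called and 1.8% downward, and thinning to 100000 UMIs or the HiSeq 4000 alone left 1. The Pecam1 call was lost without E9.5 replicate 1 or 2 or E11.5 replicate 2 (highest adjusted p = 0.108), and the Icam2 call without E9.5 replicate 2 or 3, E10.5 replicate 1 or E11.5 replicate 2 (0.327). edgeR and DESeq2 called 0 of the 10 slope differences, with 0 at an unadjusted p under 0.05, and under edgeR those of Pecam1 and Icam2 were positive, as was that of Pecam1 under DESeq2.

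Cells with many of the genes were few. At least 5 of the 10 genes were expressed in 50 of 869 MC cells (5.75%, 95% Wilson interval 4.39% to 7.51%), while 285 expressed 0 and 302 expressed 1. There were 11 cells with exactly 4 genes, 13 with 5, 6 with 6 and 26 with at least 8, so the limit of 5 lies in a sparse stretch. Of the 50 cells, 38 were of the heart, and 27 of these came from E9.5.

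**Figure D3:**
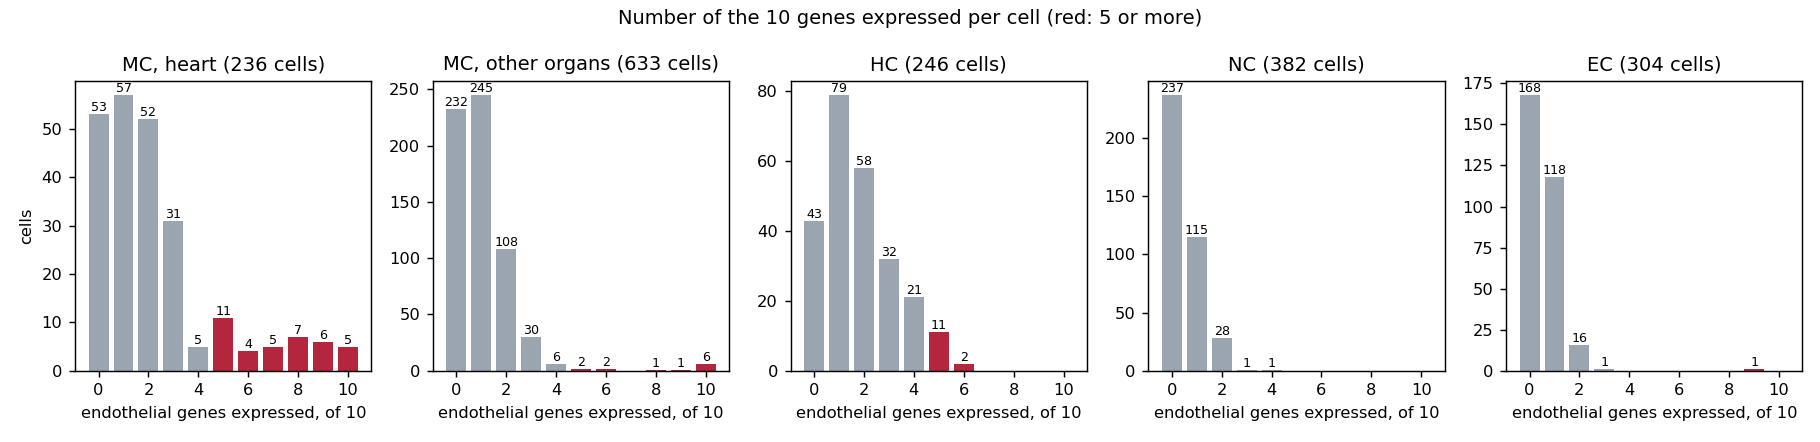
Number of the 10 genes expressed per cell (x axis) against the number of cells (y axis, scaled separately in each panel) in heart MC (236 cells), other MC (633), HC (246), NC (382) and EC (304). Only MC cells, and 1 EC cell, reach past 6 genes, and heart MC has the heaviest tail.

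By embryo, the share of heart MC cells with at least 5 genes was 28.9% and 31.1% at E9.5, 20% and 0% at E10.5 and 5.71% and 6.06% at E11.5 (15.3% ± 13.2, n = 6). Both E9.5 embryos lay above the other 4. Lung had 6 such cells, all at E9.5, liver 3, forebrain, hindbrain and somite 1 each, and intestine (0 of 90) and skin (0 of 91) none, which allows up to 3.33% and 3.30%. HC had 13, 11 of them in liver, with at most 6 genes, and NC had none, with at most 4. The depth of the 50 MC cells was like that of the rest, with medians of 308390.5 and 309609 UMIs. With 1 UMI in place of 10 TPM as the limit, 13.2% of MC cells had at least 5 genes. After thinning, where 1 UMI equals 10 TPM, 6.21% did.

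The EC cell with 9 of the genes was a liver cell of E9.5 embryo 3 with 2404946 UMIs, near the top of the range. It held Egfl7 at 5.28, Esam at 4.29 and Plvap at 4.2 together with Afp at 8.60 and Epcam at 3.49, genes of liver epithelium. The next highest EC cell expressed 3 of the genes. Cells had been picked singly by hand. No doublet caller was run, and whether this cell was a doublet was not tested.

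The 50 MC cells also carried genes of other lineages. Globin Hba-x was expressed in 98% of them and in 62.6% of the other MC cells, while Hba-a1 was at 0 in all MC and HC cells. The authors counted only uniquely mapped reads, and whether this bears on the 0 of Hba-a1 was not tested. Itga2b was in 32% against 2.56%. The progenitor list (Kit, Cd34, Gata2, Runx1, Myb) had a mean level of 0.92 against 0.17, with all 5 genes present and 1 in HC. Cd34 and Gata2 are also in the lists of other endothelial genes used below, so this level cannot be read as another lineage alone. Kit was in 14% against 6.23%. Col3a1 was in 90% against 81.3% and Tnnt2 in 82% against 44.4%. Other lists were lower in the 50 cells than in the other MC cells: the mesenchyme list at 2.01 against 2.72, the epithelium list at 0.60 against 0.84 (Epcam in 10% against 16.4%) and the macrophage list at 0.104 against 0.153 with C1qa at 0. The part of RNA from other cells in these values was not tested. Of the 50 cells 38 were of the heart, but of all 869 MC cells 236 were, so these comparisons also differ by organ. In heart cells with at most 2 of the other genes, the cardiomyocyte list was 3.88 with Tek and 6.18 without, against 2.70 in the 50. The red cell list was 2.49 and 2.66 in those heart cells, against 2.40 in the 50.

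Each gene can be read in cells that express at least 5 of the other 9, so that it does not choose its own cells. Plvap was expressed in 97.4% of such MC cells, Egfl7 in 94.6%, Tek in 85.7%, Icam2 in 85.4%, Pecam1 in 78.6%, Ecscr in 72.7%, Tie1 in 60.4%, Esam in 56.3%, Emcn in 52.1% and Kdr in 40.4%, of 37 to 48 cells each. For Kdr, the share of such cells was 10 of 37 in heart (27.0%) and 4 of 4 in lung. In the remaining MC cells the shares were 48.7% for Egfl7, 17.2% for Plvap, 12.8% for Tek and 12% for Ecscr, against 5.47% for Kdr, 4.71% for Icam2, 3.29% for Esam, 2.92% for Emcn, 2.78% for Pecam1 and 0.365% for Tie1.

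**Figure D4:**
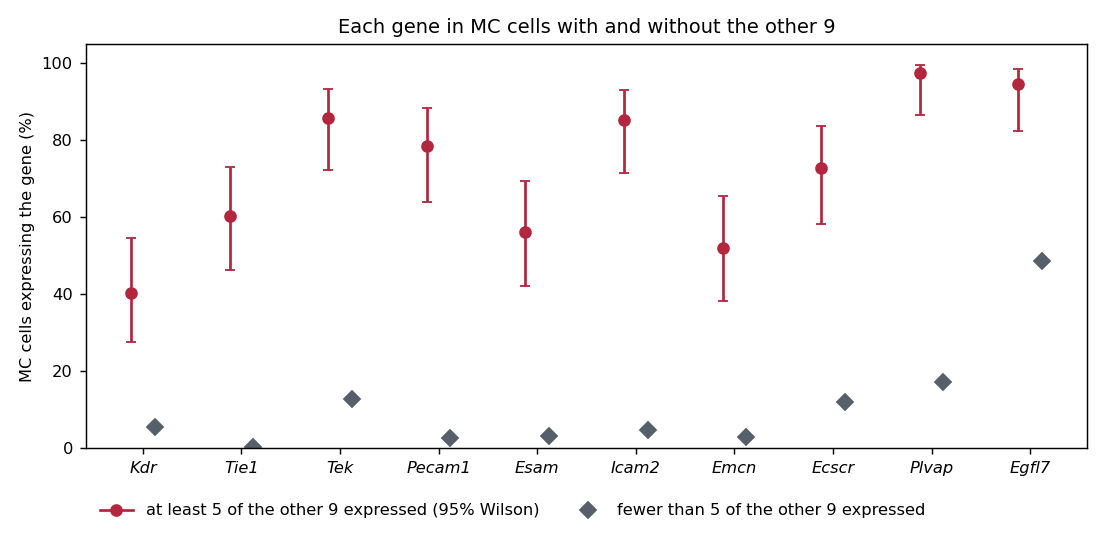
Percentage of MC cells expressing each gene among cells with at least 5 of the other 9 genes (red, with 95% Wilson intervals) and among cells with fewer. Tie1 has the widest ratio, 60.4% to 0.365%, and Egfl7 the narrowest, 94.6% to 48.7%.

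Read from the side of the gene, Tie1 was the strictest: 29 of its 32 expressing MC cells held at least 5 others (90.6%). For Pecam1 this was 58.9%, Emcn 51.0%, Esam 50%, Icam2 47.3%, Kdr 29.7%, Tek 25.4%, Ecscr 24.4%, Plvap 20.6% and Egfl7 7.95% (35 of 440). Most MC cells with Egfl7, Plvap, Tek, Ecscr or Kdr thus held fewer than 5 of the other genes.

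**Figure D5:**
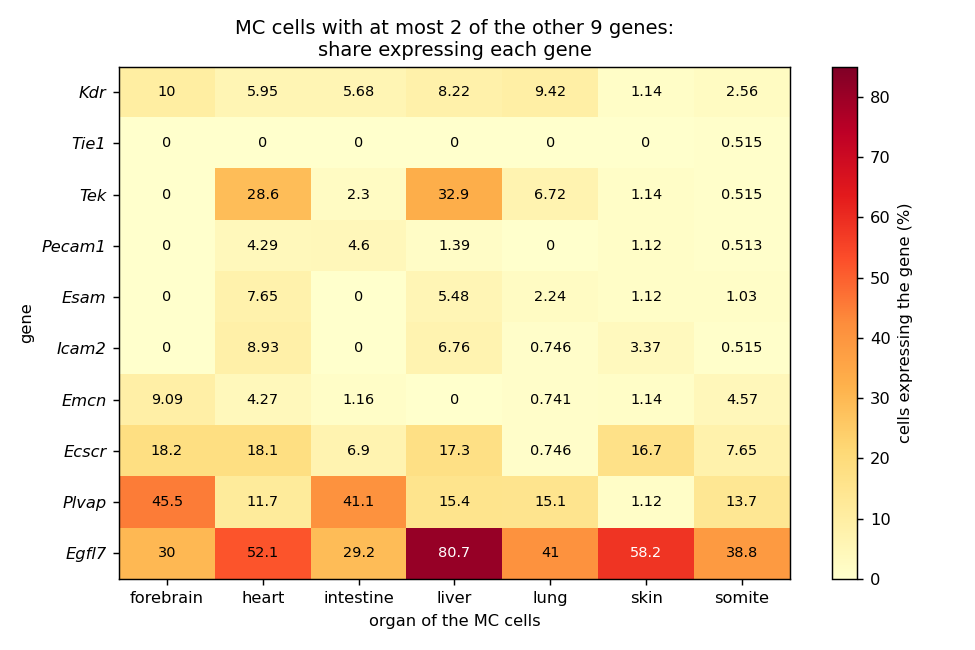
Percentage of MC cells expressing each gene (rows) among cells with at most 2 of the other 9 genes, by organ (columns), on a colour scale. Plvap is darkest in forebrain (45.5% of only 11 cells) and intestine (41.1% of 90), Tek in heart and liver (28.6% and 32.9%) and Egfl7 in liver (80.7%).

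The cells with at most 2 of the other genes show where the single genes were held. Plvap was in 37 of 90 intestine MC cells (41.1%, 95% Wilson interval 31.5% to 51.4%) and in 1.12% of skin cells. By embryo it was in 71.4%, 50% and 68.8% at E9.5, 30% and 25% at E10.5 and 0% and 50% at E11.5 of intestine cells, so 6 of 7 embryos had it. Thinned to 100000 UMIs, all intestine MC cells gave 44.9%, NC 14.9%. These Plvap cells had a mesenchyme list (Col3a1, Pcolce, Cdh11, Pdgfra, Col1a1) of 2.71 and the other intestine cells one of 2.53.

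Tek was in 52 of 182 heart cells of this kind (28.6%) and 26 of 79 liver cells (32.9%). It was found in all 6 heart embryos and in all 3 E9.5 liver embryos, but in 0 of the 3 such liver cells of E10.5. In heart the shares were 17.9% and 16.7% at E9.5, 44% and 50% at E10.5 and 24.1% and 13.3% at E11.5, both E10.5 embryos being above the rest. The heart cells with Tek had a mesenchyme list of 3.25 against 1.5 in those without, and a cardiomyocyte list (Myl7, Tnnt2, Ttn, Nkx2-5, Myh6) of 3.88 against 6.18. In liver the mesenchyme list was 2.87 and 2.44. Ecscr was in 18.1% of such heart cells, 17.3% of liver and 16.7% of skin cells but 0.746% in lung. Egfl7 was in 80.7% in liver, 58.2% in skin and 52.1% in heart, and Kdr in 13 of 138 lung cells (9.42%), whose cardiomyocyte list was 2.10 against 0.35. The organs and lists in these sentences were picked after the shares were seen and carry no test.

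Over the 869 MC cells, the level of each gene followed the mean of the other 9 with an r of 0.79 for Icam2, 0.75 for Pecam1, 0.75 for Tie1, 0.74 for Esam, 0.68 for Plvap, 0.66 for Emcn, 0.63 for Ecscr, 0.58 for Tek, 0.48 for Egfl7 and 0.46 for Kdr. Pecam1 and Icam2 were the closest pair (r = 0.76) and Kdr and Egfl7 the most distant (r = 0.23). Among cells with fewer than 5 of the other genes, r was 0.31 for Icam2 and 0.054 for Emcn. Cells share embryo, library and depth, so these are descriptions.

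Outside the list, the 10 genes of 12621 whose level was most like the mean of the 10 over the 869 MC cells were Cd93 (r = 0.77), Cdh5 (0.74), Eng (0.73), Gngt2 (0.72), Fxyd5 (0.71), Sox17 (0.70), Gimap6 (0.69), Smagp (0.69), Abi3 (0.68) and Sox7 (0.67). Cdh5, the cadherin of endothelial junctions, was in 52% of the 50 cells and 0.855% of the other MC cells, and Cd93 in 74% and 1.22%. Over the 37 means of an embryo in an organ, r was 0.85 for Cd93, 0.83 for Cdh5 and 0.83 for Sox7.

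Other endothelial genes, from lists drawn up with earlier results of these data known, were counted in the same fits. Of 8 genes of the VEGF pathway, 7 were higher in MC than in NC (9.57% of all genes) and 4 than in EC (6.28% of all genes), among them the co-receptor Nrp1 (1.34 ± 0.31 and 1.14 ± 0.29, adjusted p = 0.00176 and 0.00677). In heart MC, 9 of 19 surface and junction genes were higher than in the other organs and 0 lower (7.97% of all genes were higher), such as Eng, a TGF-beta co-receptor, by 0.96 ± 0.14 (adjusted p = 1.67e-06). Heart also held more Nrp1 (0.98 ± 0.31, 0.0233) and Hapln1, a matrix protein of cushions (1.81 ± 0.25, 1.64e-06), and less Nr2f2, a regulator of vein identity (-2.09 ± 0.28, 5.3e-07). In heart MC these genes come from lists that went both ways, beside 19.1% of all genes called and 7.97% upward. Of 8 VEGF genes 3 were higher and 1 lower. The artery, vein and lymph list, with Nr2f2, had 3 higher and 1 lower of 10. The endocardium and cushion list, with Hapln1, had 2 higher and 2 lower of 8. Liver MC had more Nrp1 (2.69 ± 0.42, 5.36e-05) and lung MC more Angpt2, a ligand of Tek (0.97 ± 0.13, 4.97e-06), with lung means of 0.73 to 2.18.

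The slopes in heart MC were called downward for 6 of these 19 genes and upward for 0, where 5.47% of all genes were called downward, among them Cd93 (-0.48 ± 0.077 per day, adjusted p = 0.000375), Eng (-0.48 ± 0.11, 0.0124) and S1pr1, a receptor of the lipid S1P (-0.42 ± 0.12, 0.0317). Of 8 VEGF genes 1 fell, Flt1, a decoy receptor of VEGF (-0.26 ± 0.055, 0.00477). Of 4 angiopoietin genes tested 1 fell, Ptprb, a phosphatase that acts on Tek (-0.41 ± 0.072, 0.00117). Nfatc1, a factor of the endocardium, fell by 0.41 per day (± 0.10, 0.016). These slopes share the limits of those above: stage and instrument cannot be told apart in the E9.5 heart, and edgeR called 0 of all 15619 heart slopes.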

How the data were processed

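Single cells were picked and sequenced by a modified STRT protocol that counts UMIs at the 3′ end. According to the methods and the submitters' notes, the authors processed reads with CASAVA 1.8, aligned them with TopHat2 2.0.12 to mm10, counted genes with HTSeq, whose version and annotation are not given in the sources used here, and removed UMI duplicates. The deposited values are CPM, that is a gene's UMIs scaled to 1000000 in each cell, which the authors call TPM. No gene length enters them. Cell groups came from the study's supplement and organs, stages and embryos from the labels. Rescaled by the total of each cell, 100% of values came out as whole UMIs (tolerance 0.05 UMIs). On these, edgeR called 8319 genes between MC and HC, and limma on the levels 6496. Shares and limits from a count of 0 (3 cells) and Wilson intervals (95%) cover counting error only, and depth per cell sets what could be seen.

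Of 1916 cells, 1819 were kept by the study and 1815 had a group, of which 14 were second copies of identical columns. Levels were averaged per embryo, or embryo and organ, over at least 3 cells and tested with limma 3.58.1 in R 4.3.3 (trend, two-sided, Benjamini-Hochberg over all genes expressed in at least 3 cells), called at an adjusted p under 0.05. Organs were set against the unweighted mean of the others, and slopes against embryonic day. Test code was checked on simulated data. Alternatives were edgeR 4.0.16 and DESeq2 1.42.0 on the recovered whole UMIs summed per embryo, log2(TPM + 1), no filter, at least 5 cells, thinning to 100000 UMIs, HiSeq 4000 embryos, E9.5 embryos, day as covariate, duplicates kept, each embryo left out, and the embryo as replicate block. Labels pair sets of the same embryo. Deviations from group means correlated at -0.044 to 0.681 (median 0.27, 39 pairs) between groups and -0.118 to 0.516 (median 0.15, 82 pairs) between MC organs of an embryo.

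All 10 genes are named with values. Of the other lists, up to 6 called genes per comparison with the largest difference could be named, and the 10 highest by likeness. Members and lists were chosen with earlier results of these data known. Doublets were not called. The instrument of each embryo was taken from the labels, which name the HiSeq 2500 for E9.5 embryos 1 and 2, whereas the methods name only the HiSeq 4000. The split of HC cells by 1 further marker is not reported here.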

Additional observations from a re-analysis of the deposited data

Results flagged for a closer look

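In 22 of 88 sets of embryo means (25%), the highest embryo stood apart from the rest by Dixon's criterion, which marks about 1 in 20 sets of normally distributed values by chance. In 9 of the 22 all other embryos were at 0, so that any value above 0 meets the criterion, and that rate does not hold for means that are mostly 0. In each of the 22 it was the highest embryo, and 11 of them were in E9.5 embryo 2, labelled HiSeq 2500, the only female and the deepest embryo (median 924171 UMIs per cell, against 187427 to 309740 in the other 6). All levels that follow are mean log2(TPM/10 + 1), and many of the other embryos were at or near 0, where 1 or a few expressing cells set a mean.

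In E9.5 embryo 2, Ecscr was at 0.95 over all MC cells (0.17 to 0.51 in the other 6 embryos) and at 0.72 in intestine MC (0 to 0.26 in the others). Esam was at 0.45 over all MC cells (others 0.105 to 0.24), at 0.99 in heart MC (others 0.28 to 0.50) and at 0.088 in skin MC (others 0). In skin MC of this embryo Icam2 was at 0.34, Pecam1 at 0.071 and Tie1 at 0.027, each against 0 in the other 5. Pecam1 at 0.23 and Tie1 at 0.15 in lung MC and Tek at 0.34 in intestine MC also stood against 0 in all other embryos.

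In E9.5 embryo 1, Kdr was at 1.18 in intestine MC (others 0 to 0.28) and at 0.24 in NC (others 0 to 0.025). In E9.5 embryo 3, Kdr was at 0.085 in EC (others 0 to 0.0094) and Emcn at 0.071 in skin MC (others 0). Emcn was at 0.22 in intestine MC of E10.5 embryo 1 (others 0 to 0.078), and Kdr at 0.15 and Tek at 0.21 in skin MC of E10.5 embryo 2 (others at most 0.0054 and 0). Esam was at 0.95 in lung MC of E11.5 embryo 1 (others 0 to 0.29). In somite MC of E11.5 embryo 2, Icam2 was at 0.19, Pecam1 at 0.19 and Tek at 0.20, where the other 6 embryos reached 0.069, 0.064 and 0.022.

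The slope on day in heart MC lay below the mean slope of intestine, lung, skin and somite by the test of the difference for Tie1 (-0.50 per day, adjusted p = 0.000132), Pecam1 (-0.41, 0.0111) and Icam2 (-0.40, 0.0298). The limits given with these differences in the results hold here too.

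Outside the cells analysed, 32 cells passed the study's minimum of genes but were left out of its groups. They held 723 UMIs of Egfl7, 303 of Ecscr, 102 of Tek, 65 of Emcn, 45 of Plvap and 10 of Icam2, each above the 3 that a count of 0 allows. These genes were expressed in 8, 5, 3, 1, 2 and 3 of the cells, and no such cell expressed more than 4 of the 10 genes.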

How the results depend on the processing

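Counts below are of the 10 genes called. Of 42 called differences, refitted in 697 settings in all, 549 kept direction and call, 145 lost the call and 3 reversed, and 87 of 2170 refits of the 128 others gained a call. In every refit, none of which asked for a least size of difference, the calls held for Tek in MC against HC, NC and EC, Ecscr in MC against HC and NC, Egfl7 and Emcn in MC against HC, Icam2 in heart against the other organs, and Egfl7, Icam2, Pecam1 and Tie1 in HC against NC and EC. With a difference of at least 1 (slopes 0.5) asked for besides the adjusted p, the count was 1 for MC against HC, 2 for HC, 4 for the heart slope and 0 for MC against NC, MC against EC, forebrain, heart, intestine, skin, somite, the lung slope and the slope difference. With log2(TPM + 1) it was 3 for MC against NC, 2 for intestine and 2 for liver, and without the filter 0 for skin and for the lung slope. With at least 5 cells a mean it was 7 for heart, 2 for liver and 0 for forebrain, intestine, skin and somite. With the embryo as replicate block, the pairing the labels give, it was 5 for heart, 3 for intestine and 1 for skin, and no other count moved by over 1.5 times. edgeR gave 2 for MC against EC, 5 for heart, 3 for intestine and 0 for liver, somite and the heart, intestine and difference slopes. DESeq2 gave 8 for MC against NC, 6 for intestine, 3 for the lung slope and 0 for forebrain, somite, the heart slope and the slope difference. After thinning the slope difference gave 1. HiSeq 4000 embryos gave 3 for MC against NC, 1 for skin, the heart slope and the slope difference, and 0 for forebrain, intestine, liver, somite and the intestine slope. E9.5 embryos gave 3 for intestine, 2 for somite and 0 for liver and skin, and day as covariate 5 for heart, 2 for intestine and 1 for skin. In the E9.5 embryos forebrain had only the mean of embryo 2, from 3 cells, and its count is not given. In the HiSeq 4000 embryos, and with at least 5 cells a mean, it had only that of E10.5 embryo 1. Leaving out either embryo also left forebrain with 1 mean. The cause was not tested for any of these.

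With each embryo left out in turn, the counts ran from 6 to 7 (MC against HC), 4 to 4 (NC), 4 to 5 (EC), 4 to 5 (HC), 0 to 3 (forebrain), 3 to 4 (heart), 0 to 3 (intestine), 0 to 2 (liver), 0 to 3 (skin), 0 to 2 (somite), 2 to 7 (heart slope), 0 to 1 (intestine and lung slopes) and 1 to 4 (slope difference). The share of MC cells with at least 5 genes, 5.75%, was 7.02% for at least 4 genes, 4.26% for at least 6, 13.2% at 1 UMI and 6.21% after thinning. The slope difference reversed for Pecam1 with edgeR (2.42) and DESeq2 (0.61) and for Icam2 with edgeR (0.87), and the cause was not tested.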
